A study of Mus musculus with 8 samples.

Results

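The genes described here make fatty acids and assemble them into triglyceride in the liver. The set holds 34 genes, listed by symbol, and all 34 were found among the 54309 genes of the deposited count table. They comprise 5 lipogenic enzymes, 9 elongases and desaturases, 4 regulators, 4 acyl-CoA synthetases, 10 enzymes of glycerolipid assembly and 2 genes of fatty acid uptake and binding. The rule that picks them uses no measured value, but the set was proposed with earlier results of these data known.

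RNA came from whole livers of male C57BL/6 mice (given as C57BL/6J in the study's design) with no transgene or deletion named. Every mouse, controls included, ate the fructose-palmitate-cholesterol diet for 16 weeks, a model of nonalcoholic steatohepatitis (NASH), in which fat-laden liver becomes inflamed and fibrotic. From week 8 to week 16 they were injected intraperitoneally with control IgG or with an antibody against CD47 at 200 µg per mouse, in groups of 7 to 8 mice, of which 4 libraries per group are used here (IgG 1 to 4 and antiCD47 1 to 4). CD47 is a surface protein that signals through SIRPα on macrophages to restrain engulfment, and the study asked how blocking it affects clearance of necroptotic hepatocytes and fibrosis. The mice's age, feeding state and hour of tissue collection are not given in the sources used here. Nothing ties a library to an animal, so p-values measure the spread between these libraries, which may be technical.

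Fatty acids are built in the hepatocyte cytosol from citrate. ATP citrate lyase releases acetyl-CoA, acetyl-CoA carboxylase makes malonyl-CoA and fatty acid synthase builds palmitate, which elongases lengthen and desaturases give double bonds. Acyl-CoA synthetases activate fatty acids from any source, and acyltransferases and lipins then add them stepwise to glycerol-3-phosphate to form triglyceride. Insulin, through the transcription factor SREBP-1c, and glucose, through ChREBP, are the best known drivers of these genes in liver, and excess synthesis is a feature of fatty liver disease.

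Total counts ran from 43691472 to 55477484 per library. Values below are CPM, that is, counts scaled to a common library size, where the scaling factor (TMM) was 1.03 to 1.11 in IgG and 0.895 to 0.989 in antiCD47. The antiCD47 2 library stood furthest from the others of its group: its chi-square per degree of freedom against them was 105.4 to 166, against 48.5 to 74.1 among the other antiCD47 libraries. Alb, the hepatocyte albumin gene, was at 42482 ± 1682 CPM in IgG and 46638 ± 4128 CPM in antiCD47 (SD, n = 4 each), and the 10 hepatocyte markers summed to 67069 to 72511 CPM in IgG and 70360.5 to 84098 CPM in antiCD47. Of 8 adipocyte markers, Lep and Ucp1 had no count in any library, and Adipoq had 4 counts over the IgG group and 2 over the antiCD47 group. The list still summed to 65.1 to 114 CPM in IgG and 48.5 to 167 CPM in antiCD47, nearly all from Cidea (47.0 ± 19.1 CPM in IgG and 48.7 ± 26.5 CPM in antiCD47, SD, n = 4 each) and Cfd (34.1 ± 6.34 CPM in IgG and 58.7 ± 28.8 CPM in antiCD47; log2 fold change 0.79 ± 0.36, adjusted p = 0.167). The 34 genes took 3.34% to 4.71% of all counts in the IgG libraries and 3.07% to 5.07% in the antiCD47 libraries, most of it from Scd1 alone (2.00% to 3.13% and 2.04% to 3.86%).

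Transcripts of 3 of the 34 genes (8.82%) fell with anti-CD47 and none rose. Beside them, 5.40% of all genes tested were called lower and 5.44% higher. The 3 were Gpam, which makes the mitochondrial enzyme that commits acyl-CoA to glycerolipid, Srebf1, which encodes SREBP-1, and Mid1ip1, whose product promotes polymerization and activity of acetyl-CoA carboxylase. They fell by 32.4%, 21.1% and 34.1%. None of the 3 passed the test when IgG 1, IgG 3, IgG 4 or antiCD47 3 was left out. The core synthesis enzymes (Acly, Acaca, Acacb, Fasn, Me1) and the final triglyceride step (Dgat1, Dgat2) did not pass the test. In bulk tissue, fewer cells of a type and less RNA per cell cannot be told apart.

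All 34 genes passed the filter on low counts and entered edgeR's quasi-likelihood test, adjusted over the 15472 genes tested. At an adjusted p of 0.05, 3 members were lower and 0 higher, beside 5.40% of all genes tested called lower and 5.44% called higher. DESeq2 and limma voom each also gave 3 lower and 0 higher. The same 3 were the only members whose IgG and antiCD47 values did not overlap, where 10.1% of all genes were lower without overlap and 9.51% higher. At an unadjusted p of 0.05, 6 members were lower (Gpam, Srebf1, Mid1ip1, Thrsp, Scd2 and Fads2) and 1 higher (Acsl3), against 16.0% and 16.6% of all genes. The lower members thus made up 8.82%, 8.82% and 17.6% of the set at these 3 thresholds, near the background shares, and the counts are no result about the set. The median log2 fold change was -0.08 over the members and -0.01 over all genes tested, with 23 members below 0 and 11 above. The authors' deposited table lists 4 members at an adjusted p under 0.05, all with a negative log2 fold change: Gpam (2.3e-05), Mid1ip1 (0.00656), Srebf1 (0.0153) and Thrsp (0.022). In the authors' deposited table, 8.68% of its 14432 genes have a negative fold change at that threshold, and its reference group is not stated.

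**Figure D1:**
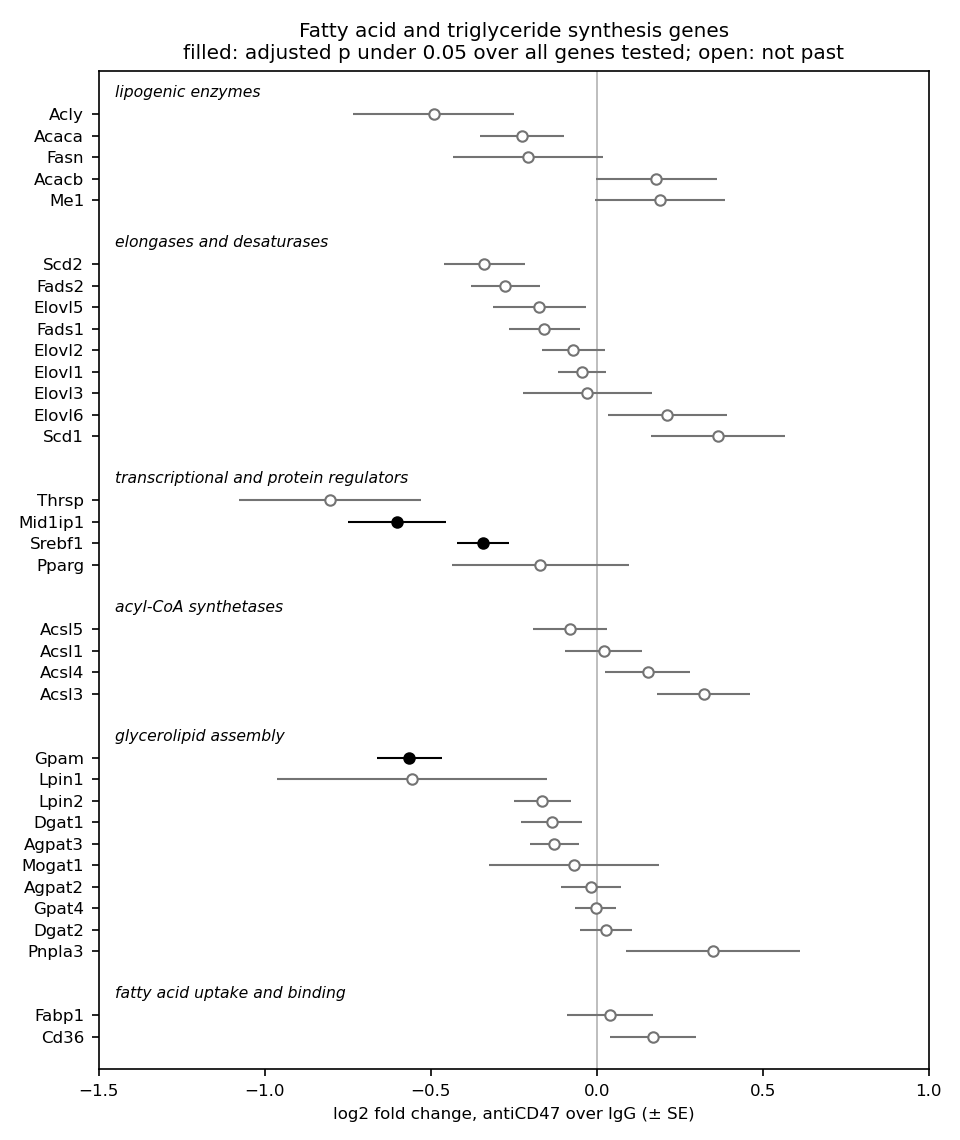
Log2 fold change of each gene, antiCD47 over IgG (horizontal axis, points with SE, 4 libraries per group), grouped by role. Filled points have an adjusted p under 0.05 over all genes tested: Srebf1 and Mid1ip1 among the regulators and Gpam in glycerolipid assembly, all 3 below 0.

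These calls depended on single libraries while the sizes of the changes held. Leaving out IgG 1, IgG 3, IgG 4 or antiCD47 3 left 0 members past the threshold, leaving out antiCD47 2 left 1 (Gpam), and leaving out antiCD47 1 gave 6 lower and 1 higher. Without IgG 2 and antiCD47 2 together, 2 members were lower (Gpam and Scd2). The whole table moved alike: 836 genes were lower with all 8 libraries, against 83, 45 and 0 on dropping IgG 1, 3 or 4, and 1787, 388 and 4 on dropping antiCD47 1, 2 or 3. Scaling by library totals gave 10 lower members, and that scaling shifted the median log2 fold change of all genes to -0.19.

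For each gene that fell, the stretch before 1 annotated start is shown, because these are the members that passed the test. Their promoters can so be read side by side. Each line gives the stretch just before an annotated RefSeq start (mouse build GRCm38.p6) without exon bases, 5′ to 3′ on the gene's strand. Fasn, a classical lipogenic target that did not pass the test, is printed beside them. Capitals mark CCAAT (read as ATTGG where it lies on the other strand) and TCACCCCA, 1 form of the core of a sterol regulatory element. Only these exact letters were searched. Stretches in lower case, those of Srebf1 and Fasn included, may still hold a variant of the sterol element. The Gpam stretch lies at chr19:55127239-55127488 (minus strand, the first of 2 starts), that of Srebf1 at chr11:60210472-60210721 (minus strand, the most internal of 3 starts), that of Mid1ip1 at chrX:10717243-10717364 (plus strand, 122 bases) and that of Fasn at chr11:120824548-120824797 (minus strand).
Gpam: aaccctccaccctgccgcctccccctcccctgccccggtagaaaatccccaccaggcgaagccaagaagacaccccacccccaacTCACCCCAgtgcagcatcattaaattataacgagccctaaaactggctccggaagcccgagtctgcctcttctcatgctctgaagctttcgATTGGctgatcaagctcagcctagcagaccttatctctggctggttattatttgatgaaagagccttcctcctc
Srebf1: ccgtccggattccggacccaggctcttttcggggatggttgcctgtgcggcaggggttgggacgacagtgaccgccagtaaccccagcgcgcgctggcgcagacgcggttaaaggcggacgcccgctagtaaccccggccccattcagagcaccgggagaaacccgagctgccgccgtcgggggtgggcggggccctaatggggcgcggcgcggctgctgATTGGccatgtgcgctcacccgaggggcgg
Mid1ip1: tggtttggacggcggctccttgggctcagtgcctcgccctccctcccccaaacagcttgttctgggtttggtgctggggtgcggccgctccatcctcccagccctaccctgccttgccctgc
Fasn: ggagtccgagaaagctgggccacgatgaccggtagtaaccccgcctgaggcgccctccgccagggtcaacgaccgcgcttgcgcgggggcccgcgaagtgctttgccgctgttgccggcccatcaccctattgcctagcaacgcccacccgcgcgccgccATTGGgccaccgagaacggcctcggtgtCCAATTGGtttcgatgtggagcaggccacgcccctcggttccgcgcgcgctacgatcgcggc
The letters CCAAT occurred on either strand in the 250-base windows of 33.8% of 32851 promoters, and in at least 1 window of 15 member genes of the 27 with a promoter entry, which can have more than 1 start. In Gpam the reverse CCAAT began 74 bases before the start and TCACCCCA 165 bases before it. The first of the 3 Srebf1 starts, which is not printed, had CCAAT 166 bases before it. The stretches without exon bases before the second start of Srebf1 (250 bases) and of Gpam (95 bases), also not printed, held neither CCAAT nor TCACCCCA. Which start the counted reads of Gpam or Srebf1 came from was not tested. TCACCCCA, which 1.34% of all promoters hold, occurred in only 1 other member, Acsl1. Fasn, which did not pass the test, had CCAAT at 3 places, of which the pair at 62 and 59 bases overlap as CCAATTGG. The Mid1ip1 stretch held none of the motifs searched, which also included the E-box CACGTG, found in 6.02% of promoters and, among members, in Elovl5 and Lpin2. A match of letters shows neither binding nor use of a site.

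Among the 4 regulators, 2 fell and all 4 had a log2 fold change below 0, with a median of -0.47. Over all genes tested, 5.40% were called lower and 7889 of 15472 were below 0, and 4 genes are too few to read a difference from that. Srebf1 (ENSMUSG00000020538.16), the master transcription factor gene of fatty acid synthesis, was at 289.8, 314, 283 and 289.9 CPM in IgG 1 to 4 and 234, 215, 218 and 261 CPM in antiCD47 1 to 4. All 4 antiCD47 libraries lay below all 4 IgG libraries, with antiCD47 4 nearest to them. The gene fell from 294 ± 13.6 CPM in IgG to 232 ± 21.3 CPM in antiCD47 (SD, n = 4 each), a log2 fold change of -0.34 ± 0.08 (SE; adjusted p = 0.0294 by edgeR). With IgG 1, 3 or 4 dropped its adjusted p was 0.0772, 0.0734 or 0.0803, with antiCD47 2 or 3 dropped it was 0.0586 or 0.097, and its log2 fold change stayed between -0.40 and -0.31 with any 1 library left out. Reads of SREBP-1a and SREBP-1c, made from different starts of this gene, are summed in this count.

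Mid1ip1 (ENSMUSG00000008035.13) was at 32.2, 27.7, 32.2 and 32.6 CPM in IgG 1 to 4 and 21.1, 17.7, 16.2 and 27.2 CPM in antiCD47 1 to 4. Again no antiCD47 library reached the IgG range, and antiCD47 4 lay just under its lowest value. The fall was from 31.2 ± 2.32 CPM in IgG to 20.6 ± 4.89 CPM in antiCD47 (SD, n = 4 each), a log2 fold change of -0.60 ± 0.15 (SE; adjusted p = 0.0357 by edgeR). Its adjusted p became 0.0885, 0.0962 or 0.0946 on dropping IgG 1, 3 or 4, and 0.0771 or 0.097 on dropping antiCD47 2 or 3; the log2 fold change ranged from -0.76 to -0.50 over the 8 fits that omit a library.

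Thrsp (Spot 14), a paralog of Mid1ip1 whose product binds it and is strongly induced by thyroid hormone and carbohydrate, did not pass the test. Its levels were 464, 483, 469.6 and 603 CPM in IgG 1 to 4 and 478, 165, 285 and 229 CPM in antiCD47 1 to 4. The antiCD47 2, 3 and 4 libraries lay below every IgG library, whereas antiCD47 1 lay inside the IgG range. The log2 fold change was -0.80 ± 0.27 (SE; p by edgeR = 0.0152, adjusted p = 0.0804), the furthest from 0 of the 34. With antiCD47 1 left out it was -1.16 (adjusted p = 0.00641). Leaving out any other single library gave Thrsp an edgeR adjusted p of 0.11 to 0.175, not past the threshold. The coefficient of variation was 13.0% in IgG and 46.6% in antiCD47.

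Pparg, the lipid-storage nuclear receptor gene that rises in steatotic liver, was at 27.5, 32.5, 32.7 and 38.8 CPM in IgG 1 to 4 and 46.5, 16.7, 31.2 and 22.4 CPM in antiCD47 1 to 4. The antiCD47 libraries held both the highest and the lowest of the 8 values, and the log2 fold change was -0.17 ± 0.27 (SE; adjusted p = 0.687 by edgeR).

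**Figure D2:**
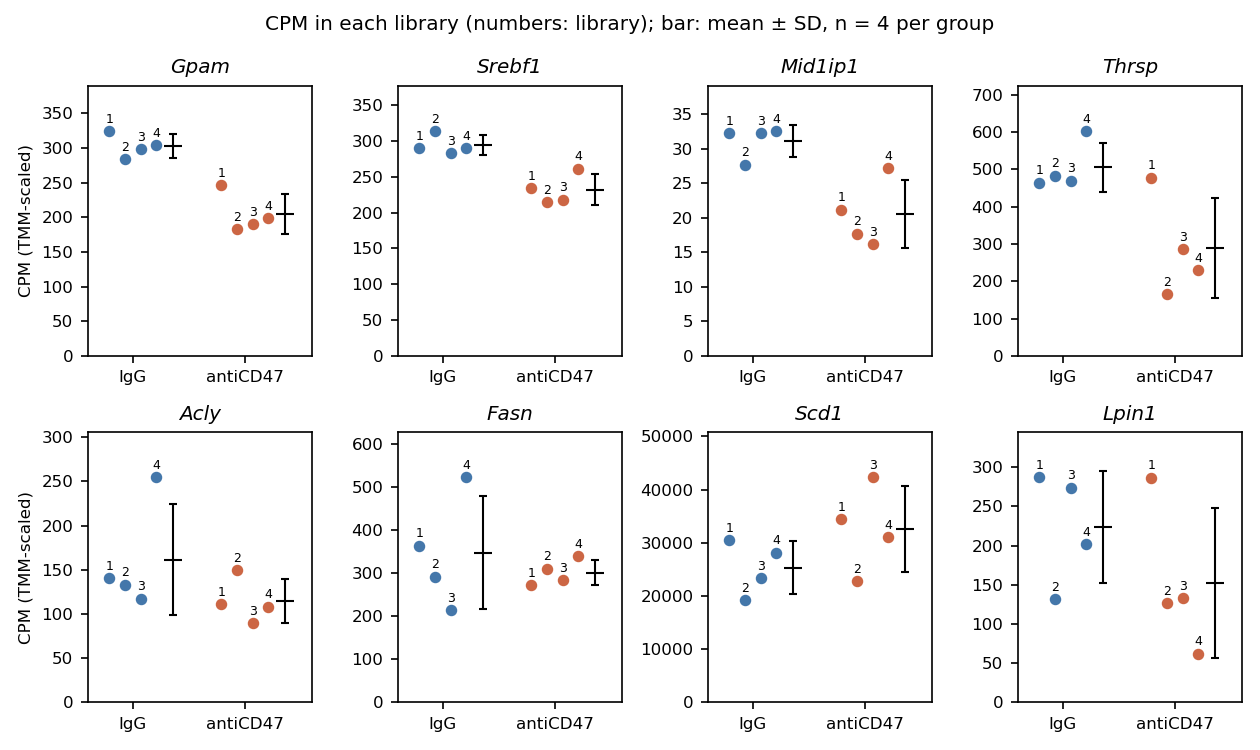
CPM of 8 genes in each library (points numbered by library; black bars, mean ± SD, n = 4 per group; vertical axes start at 0). Gpam, Srebf1 and Mid1ip1 show no overlap between groups, and for Thrsp the antiCD47 1 library (478 CPM) sits among the IgG libraries.

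None of the 5 lipogenic enzymes passed the test in either direction, with edgeR, DESeq2 or limma voom, nor at an unadjusted p of 0.05 with edgeR. Fasn, which encodes fatty acid synthase, was at 364, 292, 214 and 522 CPM in IgG 1 to 4 and 272, 310.3, 284 and 339 CPM in antiCD47 1 to 4. The antiCD47 libraries lay wholly within the IgG range, with IgG 4 highest and IgG 3 lowest of all 8. The means were 348 ± 131 CPM in IgG and 301 ± 29.7 CPM in antiCD47 (SD, n = 4 each), and the log2 fold change was -0.21 ± 0.23 (SE; adjusted p = 0.55 by edgeR). With IgG 4 left out the log2 fold change was 0.06, so its sign rested on that library.

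Acly, which makes ATP citrate lyase, was at 140.2, 133, 117 and 254 CPM in IgG 1 to 4 and 111, 149.6, 89.6 and 108 CPM in antiCD47 1 to 4. IgG 4 stood far above the other 7 libraries, and the groups overlapped. Its log2 fold change was -0.49 ± 0.24 (SE; adjusted p = 0.191 by edgeR), and -0.18 with IgG 4 left out.

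Acaca, the gene of cytosolic acetyl-CoA carboxylase, was at 152, 128, 112 and 172 CPM in IgG 1 to 4 and 123, 112, 114 and 134 CPM in antiCD47 1 to 4. Here too IgG 4 was the highest and IgG 3 the lowest of the IgG group, and the log2 fold change was -0.22 ± 0.13 (SE; adjusted p = 0.247 by edgeR). Acacb, whose carboxylase sits at mitochondria and restrains fatty acid oxidation, had a log2 fold change of 0.18 ± 0.18 (adjusted p = 0.523), and Me1, the cytosolic malic enzyme gene that supplies NADPH, one of 0.19 ± 0.19 (adjusted p = 0.524). Neither separated the groups.

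The spread within IgG was wide for these enzymes. The coefficient of variation of Fasn was 37.7% in IgG and 9.87% in antiCD47, and that of Acly 38.9% and 22.0%. Fasn, Acly, Acaca and Elovl6 were each highest in IgG 4 and lowest in IgG 3 among the IgG libraries.

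No elongase or desaturase passed the adjusted threshold with edgeR, DESeq2 or limma voom; 2 of the 9 (Scd2 and Fads2) were lower at an unadjusted p of 0.05. Scd1, which encodes the main hepatic stearoyl-CoA desaturase that makes oleate and palmitoleate, was at 30469, 19258, 23388 and 28174 CPM in IgG 1 to 4 and 34465, 22766, 42274 and 31038 CPM in antiCD47 1 to 4. The groups overlapped, with antiCD47 3 highest and IgG 2 lowest. Its log2 fold change was 0.37 ± 0.20 (SE; adjusted p = 0.235 by edgeR), the highest of the 34.

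Scd2, a related desaturase gene that is low in adult liver, was at 31.8, 24.4, 34.2 and 37.5 CPM in IgG 1 to 4 and 24.5, 26.3, 23.2 and 27.2 CPM in antiCD47 1 to 4. Only IgG 2 lay within the antiCD47 range, and the log2 fold change was -0.34 ± 0.12 (SE; adjusted p = 0.0933 by edgeR). With IgG 2 left out Scd2 passed the test at -0.45 (adjusted p = 0.0232), and with IgG 2 and antiCD47 2 both left out at -0.47 (0.0295). Leaving out any other single library gave Scd2 an edgeR adjusted p of 0.107 to 0.217, not past the threshold. Reads that the 2 desaturase genes share could have been divided between them by the authors' counting.

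Fads2, the delta-6 desaturase gene of polyunsaturated fatty acid synthesis, was at 1853, 1612, 1552 and 1646 CPM in IgG 1 to 4 and 1638, 1275, 1260.2 and 1329 CPM in antiCD47 1 to 4. The highest antiCD47 value, in antiCD47 1, lay inside the IgG range and the other three lay below it. The log2 fold change was -0.28 ± 0.10 (SE; adjusted p = 0.104 by edgeR), and -0.37 (adjusted p = 0.0209) without antiCD47 1. Leaving out any other single library gave Fads2 an edgeR adjusted p of 0.126 to 0.236, not past the threshold. The log2 fold change was -0.16 ± 0.11 (adjusted p = 0.327) for Fads1, the delta-5 desaturase gene.

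Elovl6, which lengthens palmitate to stearate, was at 137, 108, 105 and 186 CPM in IgG 1 to 4 and 139, 187, 148 and 146 CPM in antiCD47 1 to 4. The antiCD47 values, from 139 to 187 CPM, overlapped those of IgG, and the log2 fold change was 0.21 ± 0.18 (SE; adjusted p = 0.437 by edgeR). The other elongases, Elovl1, Elovl2, Elovl3 and Elovl5, had log2 fold changes from -0.17 to -0.03 and adjusted p from 0.417 to 0.932.

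The 4 acyl-CoA synthetases, which activate fatty acids for every later use, gave no call with edgeR, DESeq2 or limma voom; 1 was higher at an unadjusted p of 0.05. That gene, Acsl3, whose enzyme is found on lipid droplets, was at 26.8, 27.4, 27.6 and 28.4 CPM in IgG 1 to 4 and 25.5, 38.8, 30.9 and 42.6 CPM in antiCD47 1 to 4. The IgG libraries spanned less than 2 CPM, antiCD47 1 lay below them and the other antiCD47 libraries above. Its log2 fold change was 0.32 ± 0.14 (SE; adjusted p = 0.145 by edgeR), and 0.44 (adjusted p = 0.0191) without antiCD47 1. Leaving out any other single library gave Acsl3 an edgeR adjusted p of 0.178 to 0.301, not past the threshold. Acsl1, the most abundant of the 4, had 0.02 ± 0.12, Acsl4, which prefers arachidonate, 0.15 ± 0.13, and Acsl5 -0.08 ± 0.11 on the log2 fold change scale, with adjusted p from 0.429 to 0.917.

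**Figure D3:**
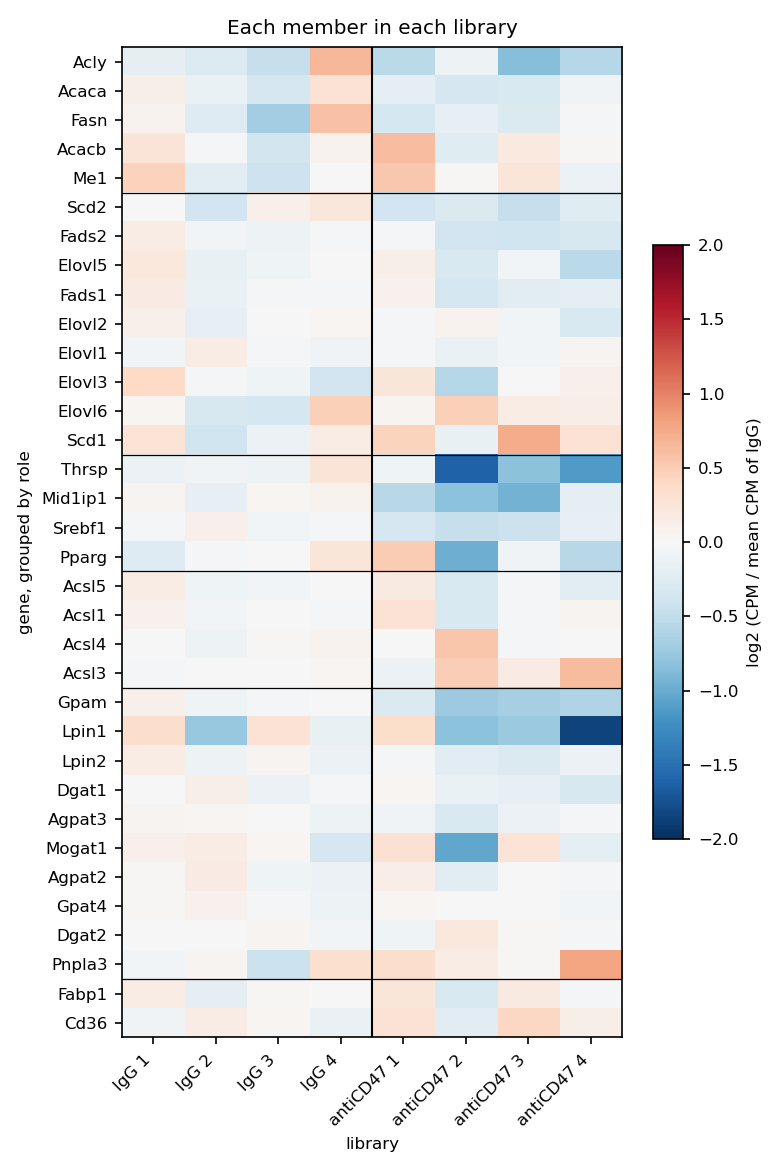
Each gene (rows, grouped by role, ordered by fold change) in each of the 8 libraries (columns), coloured by log2 of its CPM over the mean CPM of the IgG libraries. The rows of Thrsp, Mid1ip1, Srebf1 and Gpam are below 0 in every antiCD47 column. So are those of Acly, Acaca, Fasn, Scd2, Fads2, Lpin2 and Agpat3, which did not pass the test. In antiCD47 1, Thrsp is at -0.08 and Acly at -0.54. The darkest cells are Lpin1 in antiCD47 4 (-1.85) and Thrsp in antiCD47 2 (-1.61).

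Of the 10 genes of glycerolipid assembly, 1 fell, where 5.40% of all genes tested were called lower. A set of 10 genes is too small to read a difference from that. The gene that fell acts at the entry step, which it shares with Gpat4. Gpam (ENSMUSG00000024978.12) encodes the mitochondrial glycerol-3-phosphate acyltransferase GPAT1, which prefers saturated acyl-CoA and is an SREBP-1c target. It was at 325, 284, 298 and 305 CPM in IgG 1 to 4 and 247, 183, 191 and 199 CPM in antiCD47 1 to 4. The lowest IgG library lay above the highest antiCD47 library, and antiCD47 1 was the nearest. Gpam fell from 303 ± 16.8 CPM in IgG to 205 ± 28.6 CPM in antiCD47 (SD, n = 4 each), a log2 fold change of -0.56 ± 0.10 (SE; adjusted p = 0.0174 by edgeR). Dropping IgG 1, 3 or 4 gave an adjusted p of 0.0553, 0.0549 or 0.0583, dropping antiCD47 3 gave 0.0694, and the log2 fold change stayed between -0.67 and -0.51.

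Gpat4, the acyltransferase gene for the same step in the endoplasmic reticulum, had means of 226 ± 11.9 CPM in IgG and 226 ± 6.41 CPM in antiCD47 (SD, n = 4 each) and a log2 fold change of -0.00 ± 0.06 (SE; adjusted p = 0.978 by edgeR). The within-library ratio of Gpam to Gpat4 counts, which no scaling touches, was 1.42, 1.18, 1.33 and 1.44 in IgG 1 to 4 and 1.06, 0.807, 0.843 and 0.917 in antiCD47 1 to 4. The ratio did not overlap between groups and differed by -0.57 on the log2 scale (exact two-sided permutation test, p = 0.0286, the smallest that 4 against 4 allows). Adjusted over the 4 ratios computed, all chosen after the values were seen, p was 0.114.

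The other 3 ratios overlapped between groups. Scd1 over Scd2 differed by 0.68 on the log2 scale (exact permutation p = 0.0571, adjusted 0.114). Srebf1 over Srebf2, the sister gene that mainly drives cholesterol synthesis, differed by -0.35 (exact permutation p = 0.0857, adjusted 0.114), with ratios of 6.30, 6.52, 6.38 and 6.25 in IgG and 4.86, 4.18, 4.82 and 6.36 in antiCD47. Only antiCD47 4 reached the IgG ratios. Gpam over Fasn differed by -0.44 (exact permutation p = 0.286, adjusted 0.286).

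The later steps of assembly did not pass the test. Lpin1, the gene of a phosphatidate phosphatase that fasting induces, was at 287, 132, 274 and 202 CPM in IgG 1 to 4 and 287, 126, 133 and 62.1 CPM in antiCD47 1 to 4. Both groups spanned over 100 CPM, antiCD47 4 was the lowest library, and the log2 fold change was -0.56 ± 0.41 (SE; adjusted p = 0.367 by edgeR). It was -1.06 (adjusted p = 0.0428) without antiCD47 1. Leaving out any other single library gave Lpin1 an edgeR adjusted p of 0.257 to 0.582, not past the threshold. Lpin2, the more abundant lipin gene here, had -0.16 ± 0.09 (adjusted p = 0.218), and the acylglycerolphosphate acyltransferase genes Agpat2 and Agpat3 had -0.02 and -0.13.

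Dgat2, whose enzyme adds the last acyl chain to newly made diglyceride, was at 425, 420.4, 435 and 403 CPM in IgG 1 to 4 and 396, 485, 427 and 408 CPM in antiCD47 1 to 4. The groups overlapped and the log2 fold change was 0.03 ± 0.08 (SE; adjusted p = 0.828 by edgeR). Dgat1, which shares that reaction and re-esterifies fatty acids from outside, had -0.14 ± 0.09 (adjusted p = 0.328).

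Mogat1, a monoacylglycerol acyltransferase gene raised in fatty liver, was at 6.33, 6.55, 6.07 and 4.68 CPM in IgG 1 to 4 and 7.26, 2.88, 7.15 and 5.23 CPM in antiCD47 1 to 4. The antiCD47 2 library was the lowest and the groups overlapped, with a log2 fold change of -0.07 ± 0.26 (SE; adjusted p = 0.875 by edgeR). Pnpla3, the lipid droplet lipase and acyltransferase gene known from human fatty liver genetics, was the least abundant member, with 113 counts over the IgG group and 128 over the antiCD47 group. Its levels of 0.505, 0.546, 0.391 and 0.657 CPM in IgG 1 to 4 and 0.669, 0.584, 0.532 and 0.903 CPM in antiCD47 1 to 4 overlapped, and the log2 fold change was 0.35 ± 0.26 (SE; adjusted p = 0.38 by edgeR).

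Neither uptake and binding gene was called by edgeR, DESeq2 or limma voom, or at an unadjusted p of 0.05 with edgeR. Cd36, the fatty acid translocase gene that is also expressed in macrophages and endothelium, was at 308, 362, 335 and 297 CPM in IgG 1 to 4 and 398, 279, 433 and 355 CPM in antiCD47 1 to 4. The antiCD47 2 library was below every IgG library, and the log2 fold change was 0.17 ± 0.13 (SE; adjusted p = 0.386 by edgeR). Fabp1, the liver fatty acid binding protein gene, had means of 3822 ± 383 CPM in IgG and 3931 ± 641 CPM in antiCD47 (SD, n = 4 each) and a log2 fold change of 0.04 ± 0.13 (adjusted p = 0.851).

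Per transcript length, the members spanned 4 orders of magnitude. On the scale of CPM per kilobase of the longest protein-coding transcript, Fabp1 (6911 in IgG) and Scd1 (5241) were far above Fads2 (529) and Thrsp (395), and Pnpla3 (0.399) was lowest. Of the genes that fell, Srebf1 ranked 15 in both groups (68.4 in IgG, 54.0 in antiCD47). Gpam went from rank 16 to 18 (49.1 and 33.2) and so from above to below Gpat4 (41.0 and 40.9), and Mid1ip1 from 27 to 29 (15.4 and 10.2). Thrsp moved from 4 to 6 (395 and 227) behind Acsl1 and Elovl5, with antiCD47 values that overlapped the IgG range.

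**Figure D4:**
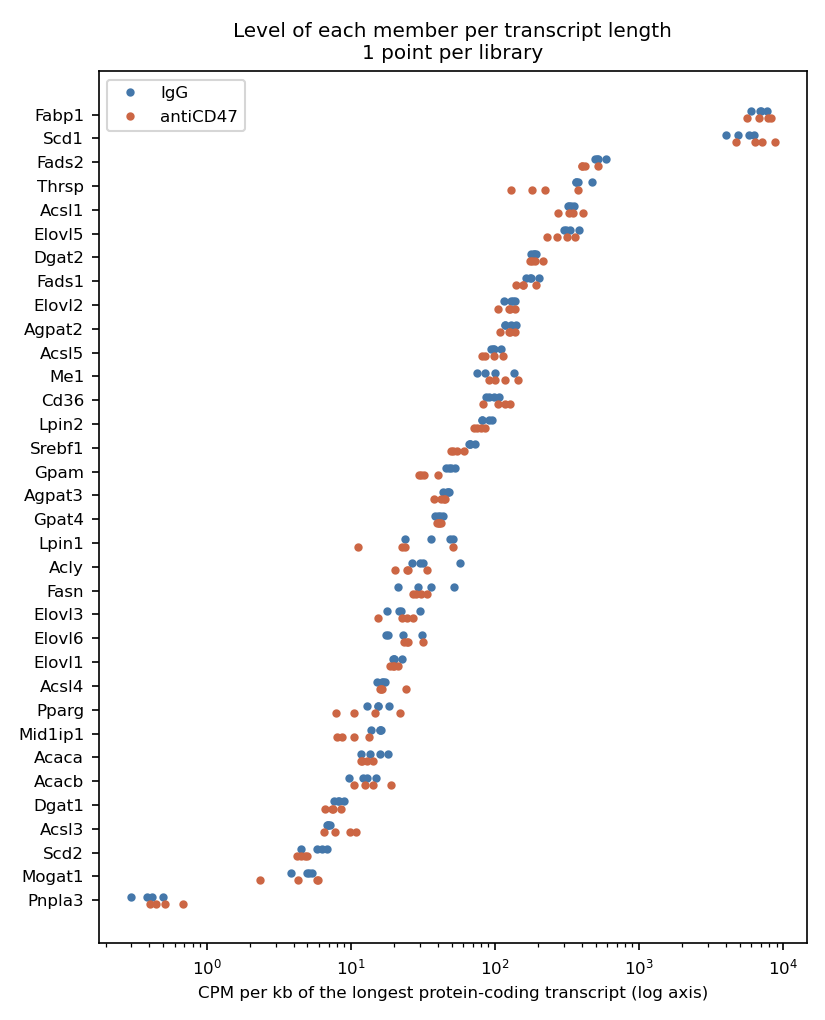
Level of each gene in CPM per kilobase of its longest protein-coding transcript (horizontal log axis), 1 point per library, ordered by the IgG mean. Fabp1 and Scd1 lie an order of magnitude above Fads2, the third, and Pnpla3 lies last.

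Across the libraries, the members did not move as a block. The mean log2 deviation of the 34 genes from the IgG mean was 0.09, -0.08, -0.08 and 0.07 in IgG 1 to 4 and 0.06, -0.26, -0.12 and -0.16 in antiCD47 1 to 4. Thus antiCD47 1 lay inside the IgG range and the other three antiCD47 libraries below it. For the 4 regulators the deviation was -0.11 in antiCD47 1, -0.96 in antiCD47 2, -0.56 in antiCD47 3 and -0.51 in antiCD47 4, all below the IgG range of -0.08 to 0.14. The lipogenic enzymes had -0.16 to 0.06 in antiCD47, inside their IgG range of -0.41 to 0.36.

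**Figure D5:**
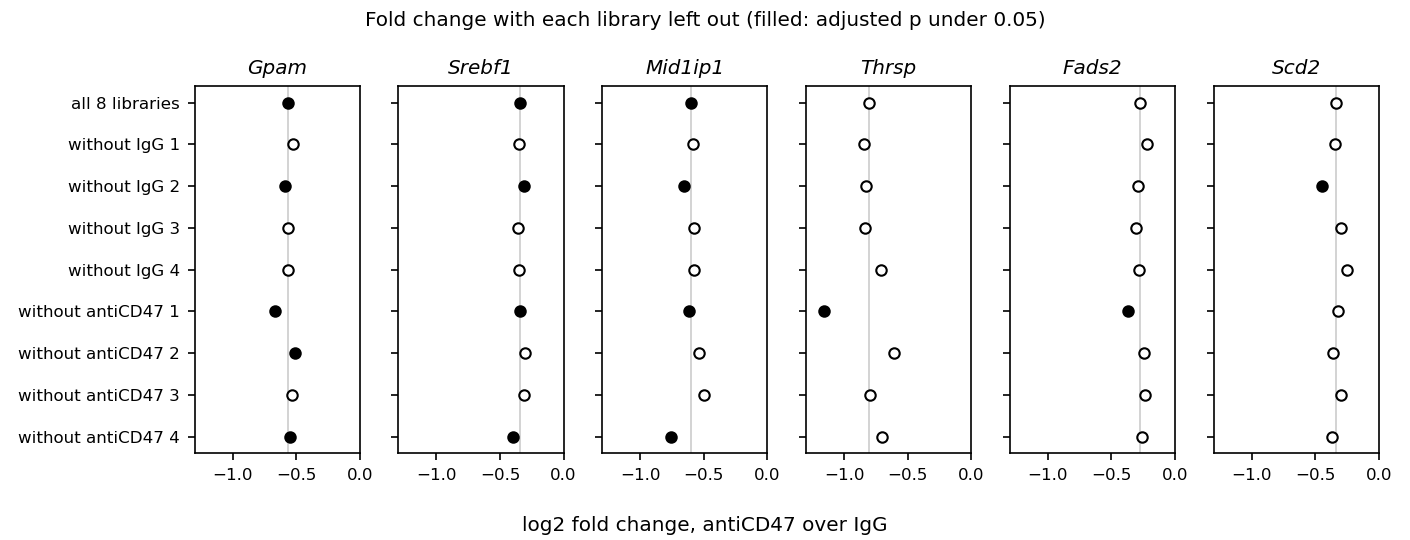
Log2 fold change, antiCD47 over IgG (horizontal axis), of 6 genes with all 8 libraries and with each library left out in turn (rows). Filled points have an adjusted p under 0.05. Every point lies below 0, while filled points are absent for Gpam, Srebf1 and Mid1ip1 without IgG 1, IgG 3, IgG 4 or antiCD47 3.

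Another 70 genes of the pathway, in 5 lists, were examined beside the members, of which 66 passed the filter on low counts. Of those, 3 rose (Nr1h3, Lpgat1 and Slc27a5) and 5 fell (Elovl7, Fads6, Lpin3, Lpcat3 and Mogat2), with a median log2 fold change of -0.03. Both counts lie close to the shares of all genes called, 5.44% higher and 5.40% lower.

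Of 16 transcription factors and SREBP-processing genes, 1 rose and 0 fell by edgeR. At an unadjusted p of 0.05 with edgeR, 4 were higher and 1 lower. DESeq2 called 2 higher and 1 lower, and limma voom 1 higher and 0 lower. Nr1h3, the gene of the sterol sensor LXRα, which activates Srebf1, rose by 0.26 ± 0.06 on the log2 scale (SE; adjusted p = 0.0336 by edgeR), the direction opposite to that of Srebf1. It passed the test only with antiCD47 1 or antiCD47 4 left out among the 8 fits that omit a library. Dropping IgG 1 to 4 in turn gave 0.0871, 0.0612, 0.0804 and 0.101 as adjusted p, and dropping antiCD47 2 or 3 gave 0.0593 or 0.106. Scap, which escorts SREBP to the Golgi, had -0.16 ± 0.06 (adjusted p = 0.0878), Usf1 0.19 ± 0.07 (adjusted p = 0.101), and Srebf2 0.01 ± 0.08 (adjusted p = 0.953). Mlxipl, which encodes ChREBP, had 0.17 ± 0.10 (adjusted p = 0.285).

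Of 12 genes of substrate and NADPH supply, 0 passed in either direction by edgeR, DESeq2 or limma voom, and 3 were lower and 0 higher at an unadjusted p of 0.05. They included the ketohexokinase gene Khk (log2 fold change -0.21 ± 0.08, edgeR adjusted p = 0.12) and the liver pyruvate kinase gene Pklr (-0.43 ± 0.18, adjusted p = 0.135), which carry fructose and glucose carbon toward synthesis.

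Among 13 tested partners of elongation and desaturation, 2 fell and 0 rose by edgeR. At an unadjusted p of 0.05 with edgeR, 3 were lower and 2 higher. DESeq2 called 3 lower and 1 higher, and limma voom 3 lower and 0 higher. Elovl4, Scd3 and Scd4 were below the filter. The elongase gene Elovl7 fell from 5.19 ± 0.515 CPM in IgG to 2.34 ± 0.900 CPM in antiCD47 (SD, n = 4 each), a log2 fold change of -1.15 ± 0.26 (SE; adjusted p = 0.028 by edgeR). Fads6 fell from 124 ± 2.28 CPM in IgG to 100.3 ± 8.49 CPM in antiCD47 (SD, n = 4 each), a log2 fold change of -0.30 ± 0.07 (SE; adjusted p = 0.0299 by edgeR). Without IgG 1, IgG 3, IgG 4 or antiCD47 3 neither passed, with adjusted p of 0.0746, 0.0751, 0.0844 and 0.0876 for Elovl7 and 0.0839, 0.089, 0.0806 and 0.0883 for Fads6, which also missed the threshold without antiCD47 2 (0.0548). Fads3 had a log2 fold change of -0.77 ± 0.22 (adjusted p = 0.0527).

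Of 14 other glycerolipid and acyl-CoA enzymes tested, 1 rose and 3 fell; Acsl6 was below the filter. Lpgat1, an acyltransferase gene of lysophospholipid and monoacylglycerol, was at 318, 359.8, 313 and 312 CPM in IgG 1 to 4 and 522, 652, 738 and 521 CPM in antiCD47 1 to 4. Every antiCD47 library lay above every IgG library, the log2 fold change was 0.90 ± 0.12 (SE; adjusted p = 0.0147 by edgeR), and it missed the threshold only without IgG 4 (0.0583) among the 8 fits that omit a library. Lpin3, the third lipin gene, had -0.56 ± 0.14 (adjusted p = 0.0392) and Lpcat3, which puts polyunsaturated chains into phosphatidylcholine, -0.38 ± 0.10 (adjusted p = 0.0445). Mogat2 had -1.23 ± 0.35 (adjusted p = 0.0496) at a level of only 0.410 ± 0.105 CPM in IgG and 0.174 ± 0.0633 CPM in antiCD47. These 3 falls each lost the threshold on dropping any IgG library, or antiCD47 2 or 3, with adjusted p from 0.0525 to 0.111 for Lpin3, 0.0543 to 0.124 for Lpcat3 and 0.0811 to 0.129 for Mogat2. Lpin3 also lost it without antiCD47 4 (0.0676) and Mogat2 without antiCD47 1 (0.0547).

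Of 11 further uptake and binding genes, 1 rose and 0 fell by edgeR. At an unadjusted p of 0.05 with edgeR, 2 were higher and 2 lower. DESeq2 called 1 higher and 2 lower, and limma voom 1 higher and 0 lower. Slc27a5, which encodes the liver transporter and bile acid-CoA ligase FATP5, rose from 454 ± 31.4 CPM in IgG to 564 ± 53.2 CPM in antiCD47 (SD, n = 4 each), a log2 fold change of 0.31 ± 0.09 (SE; adjusted p = 0.0496 by edgeR). It passed only without antiCD47 1 or antiCD47 4 among the fits that omit a library. With IgG 1 to 4 dropped in turn the adjusted p was 0.0874, 0.0612, 0.133 and 0.123, and with antiCD47 2 or 3 dropped 0.0981 or 0.123. Slc27a1 had -0.47 ± 0.15 (adjusted p = 0.0641) and Cav1 -0.80 ± 0.25 (adjusted p = 0.0651).

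Feeding and the hour of the day both move Srebf1, Thrsp, Gpam and Lpin1 in liver as textbook knowledge, so genes that report them are given beside the falls. Of 12 genes that respond to feeding and fasting, 1 fell and 0 rose by edgeR. At an unadjusted p of 0.05 with edgeR, 3 were lower and 0 higher. DESeq2 and limma voom each called 1 lower and 0 higher. Ppargc1a, a fasting-induced coactivator gene, fell from 11.8 ± 1.91 CPM in IgG to 5.96 ± 1.36 CPM in antiCD47 (SD, n = 4 each), a log2 fold change of -0.99 ± 0.17 (SE; adjusted p = 0.0176 by edgeR). Without IgG 1, IgG 3, IgG 4 or antiCD47 3 its adjusted p was 0.0511, 0.0556, 0.06 or 0.063. Sesn1, also among those with the smallest p, had a log2 fold change of -0.37 ± 0.16 (adjusted p = 0.141).

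Of 12 core clock and clock-output genes tested, 3 rose and 3 fell, where 5.44% and 5.40% of all genes did. Dbp and Tef, named below, are clock-output genes. Arntl, Clock and Cry1 rose by 0.85 ± 0.21, 0.46 ± 0.10 and 0.68 ± 0.12 on the log2 scale, and Dbp, Per3 and Tef had -0.94 ± 0.16, -0.61 ± 0.11 and -0.31 ± 0.07 (SE; edgeR adjusted p from 0.0174 to 0.0348). None of the 6 passed without IgG 1, IgG 3, IgG 4 or antiCD47 3, with adjusted p from 0.0549 to 0.103, and without antiCD47 2 Arntl (0.0754) and Clock (0.0527) also missed it. The part of feeding state or hour of collection in the falls of Gpam, Srebf1 and Mid1ip1 was not tested.

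Markers of other liver cells also moved with treatment. Beside the counts below, 5.40% of all genes tested were called lower and 5.44% higher by edgeR. Of 6 cholangiocyte markers, 5 fell (summed CPM 37.7 to 50.6 in IgG and 16.8 to 27.0 in antiCD47), and of 8 stellate cell and fibroblast markers 3 fell (834 to 1179 and 548 to 751). Of 8 Kupffer cell and macrophage markers, 3 rose by edgeR and 4 by DESeq2. At an unadjusted p of 0.05 with edgeR 4 were higher, and all 8 had a log2 fold change above 0. The summed CPM of all 8 overlapped between groups (237 to 461 and 439.98 to 672). All 5 tested neutrophil markers rose (5.91 to 8.09 and 13.8 to 31.0), with Ly6g below the filter. All 6 erythroid markers rose too (444.5 to 679.9 and 1231 to 2214). Of 10 hepatocyte markers, 1 rose (Hnf4a) and 0 fell by edgeR, whereas DESeq2 called 2 higher and 1 lower. At an unadjusted p of 0.05 with edgeR, 3 of them were higher and 1 lower, and 3 had a log2 fold change below 0. In the remaining lists, 0 of 6 monocyte-derived macrophage, 0 of 6 endothelial and 0 of 3 tested adipocyte markers passed by edgeR, DESeq2 or limma voom. There, 1 monocyte-derived macrophage marker was lower and 1 endothelial marker higher at an unadjusted p of 0.05. The summed levels were 91.5 to 147 and 66.3 to 124 CPM for monocyte-derived macrophages and 119 to 167 and 137 to 165 CPM for endothelial cells; those for adipocytes are given above. The part of these cells in the falls of Gpam, Srebf1 and Mid1ip1 was not tested.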

How the data were processed

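Whole-liver polyA RNA was sequenced from TruSeq libraries, per the labels' protocols. Estimated counts, 1 whole number for every Ensembl gene in each library, were deposited without normalization. Salmon 1.3.0 and DESeq2 1.32.0 are named in the submitters' processing notes together with build GRCm39, but what each was used for is not, and the whole numbers may be rounded estimates. The authors' deposited comparison table gives, per the file headers, the mean normalized count of each gene (a signal), its log2 fold change and standard error, a rank score, and a p-value before and after adjustment. Only signs and adjusted p-values were taken from it, since its log2 fold changes may be shrunken.

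Groups and numbers came from sample titles, and 0 columns were left unused. Of 54309 genes, 27899 had no count. Genes were filtered with filterByExpr, scaled with TMM and compared by glmQLFit and glmQLFTest in edgeR 4.0.16 (R 4.3.3), two-sided, with Benjamini-Hochberg adjustment over 15472 genes. Every adjusted p not credited otherwise is from that fit. CPM uses the TMM-scaled library size. The common dispersion of 0.028 corresponds to a coefficient of variation of 16.7%. Libraries of a group differed by a chi-square of at least 26.3 per degree of freedom, so no 2 agreed within counting noise, which does not show that they came from separate animals. In data simulated for antiCD47 against IgG on 15229 genes, edgeR recovered 43.3% of 67 genes changed by a fold of 1.5. It recovered 83.6% of 67 changed by 2 and 98.5% of 66 changed by 4, with 5.06% of its calls false. In the same simulated data 18.5% of DESeq2's calls were false, and 5.16% of those of limma voom. Only 200 genes were changed there, against 836 called lower and 842 higher in the real data. These shares may therefore differ in the real data.

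Alternatives were DESeq2 1.42.0, limma 3.58.1 voom with and without quality weights, other scalings, filters and thresholds, a replicate block and each library left out. The members and lists were chosen with earlier results of these data known. All members are accounted for by role. Values per library are given for those past the threshold or without overlap, for a fixed set of 13 (Fasn, Acaca, Acly, Scd1, Elovl6, Srebf1, Thrsp, Gpam, Dgat2, Mogat1, Pnpla3, Pparg and Cd36), and, chosen after their values were seen, for Scd2, Fads2, Acsl3, Lpin1 and Lpgat1. Of the other lists, genes past the threshold and those with the smallest p are named, except 1 gene that is not reported here. The 4 ratios and the fit without IgG 2 and antiCD47 2 were also chosen after seeing the data. Transcript lengths and names came from GENCODE M21 (build GRCm38, all 34 members matched), and promoters from RefSeq GRCm38.p6 (27 of 34 members matched, chosen for printing after the calls were known). Positions are those of that build and not of GRCm39.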

Additional observations from a re-analysis of the deposited data

Results flagged for a closer look

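Among the 68 sets of 4 libraries examined (34 genes in 2 groups), 5 held 1 library far from the other three by Dixon's ratio, where chance gives about 1 in 20. Acly was at 254 CPM in IgG 4, the highest of its group, and Thrsp at 603 CPM in the same library. Elovl1 was at 41.2 CPM in IgG 2, the highest of its group, and Mid1ip1 at 27.7 CPM in IgG 2, the lowest. Acsl4, which activates arachidonate, was at 127 CPM in antiCD47 2, the highest of its group. Of these genes, Mid1ip1 alone passed the test, and without IgG 2 its log2 fold change was -0.65 (adjusted p = 0.0403 by edgeR).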

How the results depend on the processing

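The count of 3 lower and 0 higher members, and the same 3 genes, held with DESeq2's size factors, upper-quartile scaling, no filter, a minimum of 10 counts, the DESeq2 test, limma voom and a robust fit. It became 10 lower with library totals, 7 with voom quality weights and 5 at an adjusted p of 0.1, with 0 higher each time; the cause was not tested, except that 0.1 is a looser threshold. Leaving out 1 library gave 0 to 6 lower and 0 to 1 higher members; these fits hold fewer libraries. Over all genes, 836 lower and 842 higher became 3153 and 428 with library totals, 1491 and 1683 with DESeq2, 2198 and 2133 with voom quality weights, 1724 and 1850 at 0.1, and 0 to 1787 and 2 to 1843 with 1 library left out. Without IgG 2 and antiCD47 2, chosen after seeing the data, 516 genes were lower and 574 higher. Gpam was past the threshold under 15 of 19 alternatives, Srebf1 and Mid1ip1 under 13 and Thrsp under 3, always below 0. Of 646 single values of the members, 572 kept direction and side of the threshold, 16 lost it, 18 gained it and 40, none past it, changed sign.

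Libraries of the 2 groups share numbers, but same-numbered libraries did not deviate together (r = 0.03, 0.16, -0.02 and 0.03 for numbers 1 to 4), and IgG 2 correlated better with antiCD47 3 (0.161) than with antiCD47 2 (0.157). With a replicate block, 4 members were lower (Fads2 added) and 0 higher, and 1211 genes were lower and 1214 higher. Depth limits Pnpla3, with 113 and 128 counts per group.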
